A study of Mus musculus with 416 samples.

Results

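The replication state of 10 imprinted gene loci was followed in single blastomeres of early mouse embryos after an siRNA against Rif1 (siRif1) or a control siRNA (siCont). The loci were Igf2, Kcnq1, Snrpn, Dlk1, Peg3, Igf2r, Gnas, Peg10, Grb10 and Plagl1, and each was read at the 50-kb bin that held the midpoint of the gene, with 0.5 Mb on either side. All 10 midpoint bins were measured in at least 10 cells of every group, out of 46015 bins of 49264 that were so measured, and 184 of the 201 bins in the 10 windows were used. Zygotes of the genotype (C57BL/6J xCBA) x DBA/2J, in both treatments, received 20 µM of siRNA by injection between 17 and 18 hours after hCG, and were grown to the 4-cell stage, the 8-cell stage or morulae. The siRif1 groups held 51 cells of 4-cell embryos, 50 of 8-cell embryos and 45 of morulae, and the siCont groups held 49, 60 and 44. The embryo of each cell is not named in the labels, so each group counts as 1 sample. No p-value or standard error is therefore given, and intervals are exact 95% Clopper-Pearson intervals that cover counting error only. The level of Rif1 left after injection was not analysed here.

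Imprinted genes are expressed mainly from the copy inherited from 1 parent, under the control of DNA methylation laid down in the egg or sperm. Many lie in clusters, and the copies from both parents of several clusters are known to replicate at different times in S phase in mouse cells. Rif1 is a chromatin protein that recruits protein phosphatase 1 and helps to set when regions replicate. The deposited states do not tell the parental copies apart, so the values below describe both copies together.

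For each bin and group, the replicated share is the percent of measured cells in which the bin had been copied. A high share means that the bin was copied early in S phase. Shares were centred on the mean over all used bins of the group, because groups had gone through S phase to different extents. That mean was 50.5% in siRif1 and 46.5% in siCont cells of 4-cell embryos, 43.02% and 49.2% in 8-cell embryos, and 49.98% and 49.4% in morulae. The most advanced siRif1 cell of the 8-cell stage had copied 66.5% of its bins, against 97.4% for the most advanced siCont cell of that stage. Subtracting the centred share of siCont cells from that of siRif1 cells gives the shift of a locus in percentage points, and a negative shift is called later replication. The part that S phase coverage plays in the shifts was not tested beyond the alternative cell sets.

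Coordinates are those of GRCm38. Igf2 lies at chr7:142650768-142666816 and Kcnq1 at chr7:143106877-143427050, in the same distal cluster of chromosome 7. Their midpoint bins are 600 kb apart and their windows share 9 bins, so they are not separate measurements of the surroundings. Snrpn lies at chr7:59982495-60450177 and Peg3 at chr7:6703892-6730462. Dlk1 lies at chr12:109452485-109463336, Igf2r at chr17:12682406-12769706 and Gnas at chr2:174284320-174346744. Peg10 lies at chr6:4747306-4760517, Grb10 at chr11:11930499-12037428 and Plagl1 at chr10:13090832-13131694. Igf2, Dlk1 and Peg3 lie whole within their bin, exons and introns included, and the other genes extend beyond it. The surroundings differ in gene content. The windows of Igf2, Peg3 and Igf2r held 27, 25 and 20 midpoints of protein-coding genes, whereas those of Snrpn and Dlk1 held 2 and 4. The median over windows around all used bins was 5 (interquartile range 2 to 12).

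DNA methylation falls on cytosines of CG pairs, and the promoters of the loci differed widely in CG pairs. The promoters of Igf2r and Dlk1 are shown as examples with many and with few CG pairs among the loci whose promoters were available. The relation of CG content to timing was not tested. The promoters were taken from RefSeq (GRCm38.p6), run from 250 bases before to 50 after the start, and have CG pairs in capitals. The Igf2r promoter is on the minus strand at chr17:12769657-12769956 and has 34 CG pairs. That of Dlk1 is on the plus strand at chr12:109452573-109452872 and has 9. The Dlk1 stretch lies within the gene span given above, so the start used for it is not the first base of that span.
Igf2r: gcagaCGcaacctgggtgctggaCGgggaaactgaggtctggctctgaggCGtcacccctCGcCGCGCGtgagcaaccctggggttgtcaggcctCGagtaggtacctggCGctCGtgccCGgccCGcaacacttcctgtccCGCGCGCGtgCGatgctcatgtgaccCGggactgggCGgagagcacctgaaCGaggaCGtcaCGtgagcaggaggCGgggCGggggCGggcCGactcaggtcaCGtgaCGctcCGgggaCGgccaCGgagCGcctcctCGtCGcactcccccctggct
Dlk1: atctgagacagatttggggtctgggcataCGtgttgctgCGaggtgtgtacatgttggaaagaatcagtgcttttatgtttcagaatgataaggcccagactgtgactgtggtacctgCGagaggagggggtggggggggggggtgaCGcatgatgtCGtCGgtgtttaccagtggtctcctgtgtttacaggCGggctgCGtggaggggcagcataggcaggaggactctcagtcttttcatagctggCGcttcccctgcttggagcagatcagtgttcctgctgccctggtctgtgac
Of the 10 loci, 8 had promoters in the RefSeq table. The highest CG count over the starts of a gene was 45 for Grb10, 40 for Gnas, 34 for Igf2r, 26 for Plagl1, 24 for Igf2, 13 for Peg3, 9 for Dlk1 and 7 for Snrpn. Among all 32851 promoters of the table the median was 7, and 26.5% had 20 or more. These values are over single promoters, so the highest count of a gene with several starts is not a like measure. The lowest counts of such genes were 16 for Gnas, 9 for Grb10, and 2 for Igf2 and for Snrpn.

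**Figure D1:**
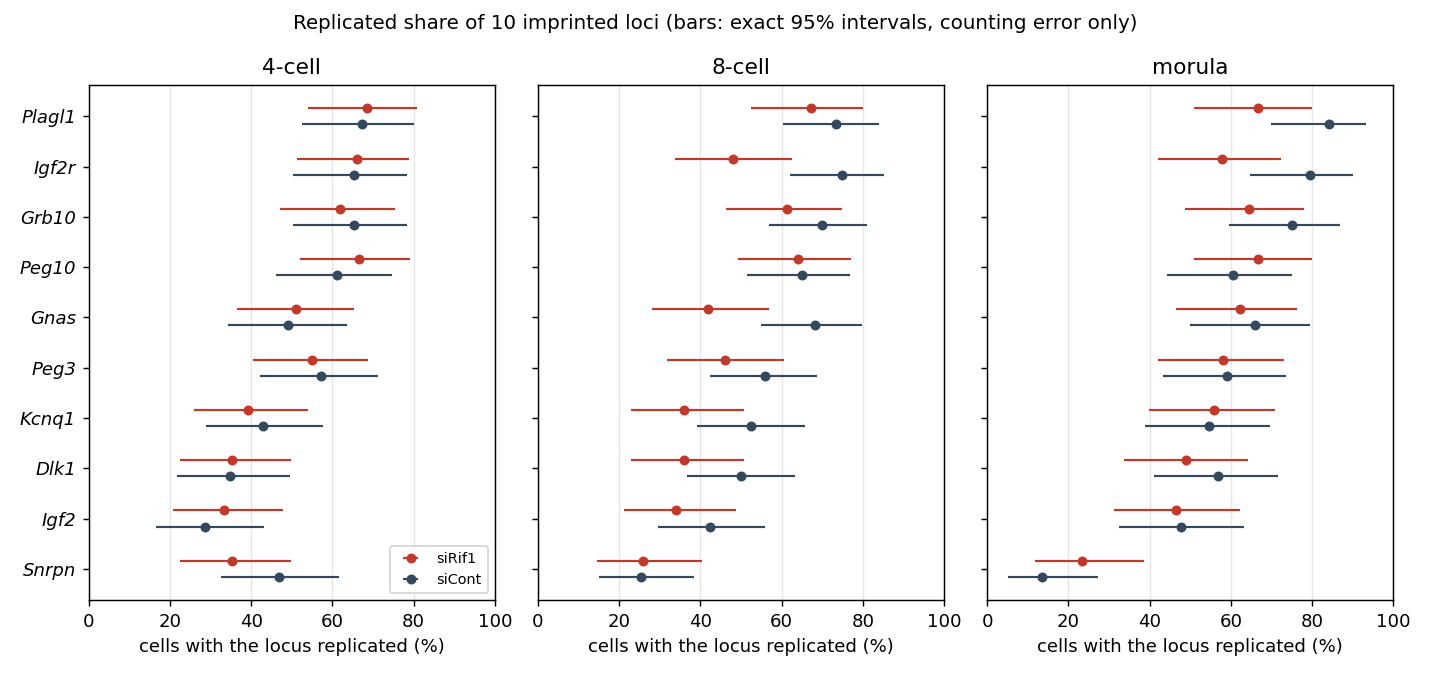
Replicated share (percent of measured cells, horizontal axis) of the midpoint bin of each locus, for siRif1 above siCont cells at the 4-cell, 8-cell and morula stages. Points are shares and bars are exact 95% intervals. Loci run from early (Plagl1) to late (Snrpn), and the widest separations of treatments are those of Igf2r and Gnas in 8-cell embryos and of Igf2r in morulae.

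The loci did not share a replication time. In 4-cell embryos the earliest of the 10 was Plagl1, with 68.6% of siRif1 and 67.3% of siCont cells replicated, and the latest was Igf2, with 33.3% and 28.6%. In morulae the latest was Snrpn, with 23.3% of siRif1 and 13.6% of siCont cells replicated. The earliest morula loci were Peg10 and Plagl1 together in siRif1 cells, at 66.7%, and Plagl1 in siCont cells, at 84.1%. Neighbours in the order of shares had overlapping intervals in all groups, except 1 neighbouring pair in siCont morulae. Over all 45 pairs of loci, 10, 7 and 7 pairs did not overlap in siRif1 4-cell, 8-cell and morula cells, and 7, 10 and 12 did not in the matching siCont groups.

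The spread among the loci differed between treatments in morulae. The SD of the centred share over the 10 loci was 13.1 points in siRif1 and 19.9 points in siCont morulae. It was 14.05 and 15.7 points in 8-cell embryos, and 14.4 and 13.6 points in 4-cell embryos. All used bins of the genome showed the same order, with SDs of 17.3 points in siRif1 and 25.8 points in siCont morulae.

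The imprinted loci had negative median shifts at every stage. The median shift was -3.27 points in 4-cell embryos, -3.17 points in 8-cell embryos and -3.04 points in morulae, and 8, 7 and 7 of the 10 loci had negative shifts. The size of the medians depended on the cells used. It was -8.32, -1.41 and -6.52 points in cells thinned to equal S phase positions, and -6.67, -5.70 and -2.81 points in cells between 20 and 80% replicated. The median over all used bins was -0.03, 0.57 and -0.74 points. Over 19406 protein-coding genes it was -2.31, -7.49 and -8.04 points, and 59.6%, 71.9% and 74.8% of them had negative shifts. As reported, the median locus had a smaller shift than the median gene in 8-cell embryos and morulae, and the count of negative loci at those stages was near the share of genes.

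Large shifts were few and were all towards later replication. A shift of -10 points or lower was found at 1 of 10 loci in 4-cell embryos (Snrpn), where 12.9% of all used bins and 20.7% of genes lay that low. It was found at 3 loci in 8-cell embryos (Igf2r, Gnas and Kcnq1), against 21.1% of bins and 42.9% of genes. In morulae it was again found at 3 loci (Igf2r, Plagl1 and Grb10), against 24.9% of bins and 41.1% of genes. The counts were thus near the share of bins and below that of genes. No locus had a shift of 10 points or higher at any stage, where 13.8%, 22% and 24.8% of bins and 9.81%, 7.67% and 7.26% of genes had one. At all 10 loci the centred intervals of the treatments overlapped at every stage, and over all used bins 0.106%, 2.86% and 2.35% did not overlap.

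**Figure D2:**
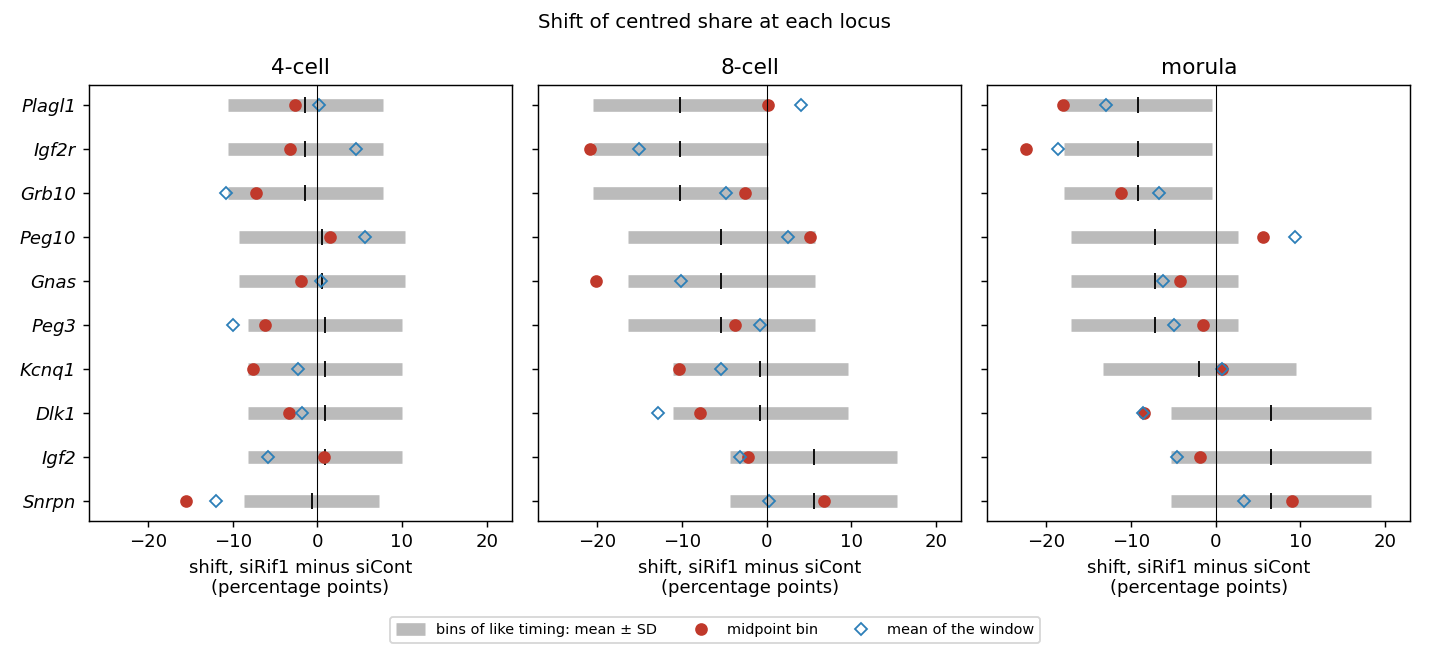
Shift of each locus (siRif1 minus siCont, percentage points) at the 3 stages. Filled circles are midpoint bins, open diamonds are means over the window, and grey bars give the mean ± SD (black tick, bar) over all bins of the same timing class. In morulae the circles of Igf2r, Dlk1 and Plagl1 lie left of their bars and that of Peg10 lies right of its bar.

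Early bins shifted later as a rule, so each locus was also set beside bins of like timing at the other stages. A locus can differ from its class at the stage itself, as Snrpn did in 4-cell embryos and Dlk1 in morulae. Bins were ranked by the mean centred share of siCont cells at the other stages and cut into 5 equal timing classes, and the mean and SD of the shift in the class of a locus were taken. By this measure 1 locus in 4-cell embryos, 3 in 8-cell embryos and 4 in morulae lay more than 1 SD from the mean of their class. The share of all used bins that lay as far from their class mean is not given here. These counts therefore do not set the loci apart from other bins. The median distance of the 10 loci from these means was -3.35, -2.95 and 0.27 points.

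Igf2r had the lowest shift of the 10 loci in 8-cell embryos and in morulae, but not in 4-cell embryos. It encodes the receptor that takes up IGF2 and sends it to the lysosome, and it is expressed from the maternal copy in mouse. In 4-cell embryos the bin was replicated in 33 of 50 siRif1 cells (66%) and 32 of 49 siCont cells (65.3%), with the shift at -3.22 points. In 8-cell embryos it was replicated in 24 of 50 siRif1 cells (48%, interval 33.7 to 62.6%) and 45 of 60 siCont cells (75%, interval 62.1 to 85.3%), with the shift at -20.8 points. In morulae it was replicated in 26 of 45 siRif1 cells (57.8%, interval 42.2 to 72.3%) and 35 of 44 siCont cells (79.5%, interval 64.7 to 90.2%), with the shift at -22.4 points. The treatments were close together in 4-cell embryos, and siRif1 was the lower at both later stages. The intervals overlapped at both of those stages, for raw and for centred shares. Among all used bins the locus stood at percentile 59.4 in siRif1 and 89.6 in siCont 8-cell embryos, and at 60.5 in siRif1 and 86.2 in siCont morulae.

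The later replication at Igf2r covered the window. All 16 used bins had negative shifts in 8-cell embryos, from -20.8 to -10.8 points (mean -15.1), and in morulae, from -24.7 to -13.4 points (mean -18.6). In 4-cell embryos the mean was 4.53 points and 5 of the 16 bins were negative. The bin lay in the earliest timing class, whose mean shift was -10.2 ± 10.3 points (SD over bins) in 8-cell embryos and -9.16 ± 8.71 points in morulae. Its shift stood at percentile 15.6 and 6.25 of that class. Neighbours in the cluster had negative shifts at the later stages too, and they partly share smoothed runs of bins with Igf2r. Airn, the antisense RNA that silences the paternal copies of the cluster, had shifts of -3.18, -19.2 and -17.9 points over the 3 stages. Slc22a3, which encodes an organic cation transporter, had shifts of 2.90, -15.5 and -20.2 points.

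In morulae the gap at Igf2r was widest in cells early in S phase. Cells were classed by the percent of the other autosomes that they had copied. Among morula cells below 40%, Igf2r was replicated in 6 of 16 siRif1 cells (37.5%, interval 15.2 to 64.6%) and 9 of 9 siCont cells (100%, interval 66.4 to 100%). These intervals did not overlap. It was the only such case among the 90 comparisons of 10 loci, 3 stages and 3 classes, where 0.416% of comparisons over all used bins did not overlap. In this class of morula cells 0.0109% of used bins had the siRif1 interval below the siCont interval. Of the 16 used bins of the Igf2r window this was so at 1, the midpoint bin. The median cell of the class had copied 32.8% in siRif1 and 31.6% in siCont. In 8-cell embryos below 40%, Igf2r was replicated in 7 of 20 siRif1 cells (35%) and 16 of 20 siCont cells (80%). There the siRif1 cells were less advanced, with medians of 29.2% and 33.95%, and the intervals overlapped. In that 8-cell class 1.05% of all used bins had the siRif1 interval below.

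A boundary other than 40% gave the same direction at Igf2r, although the sets below these boundaries share cells and are not separate checks. With morula cells below 35% the counts were 3 of 10 siRif1 and 7 of 7 siCont cells. Below 45% they were 8 of 20 and 15 of 19, and below 50% they were 11 of 24 and 19 of 23. The difference in percent ran from -70 points at 35% to -36.8 points at 50%. In morula cells between 40 and 60%, the treatments were level, with 9 of 13 siRif1 cells (69.2%) and 17 of 25 siCont cells (68%). The siCont share was thus lower in these more advanced cells than below 40%, where it was 100% of only 9 cells. The size of the early gap is therefore uncertain. Above 60% the counts were 11 of 16 (68.8%) and 9 of 10 (90%).

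**Figure D3:**
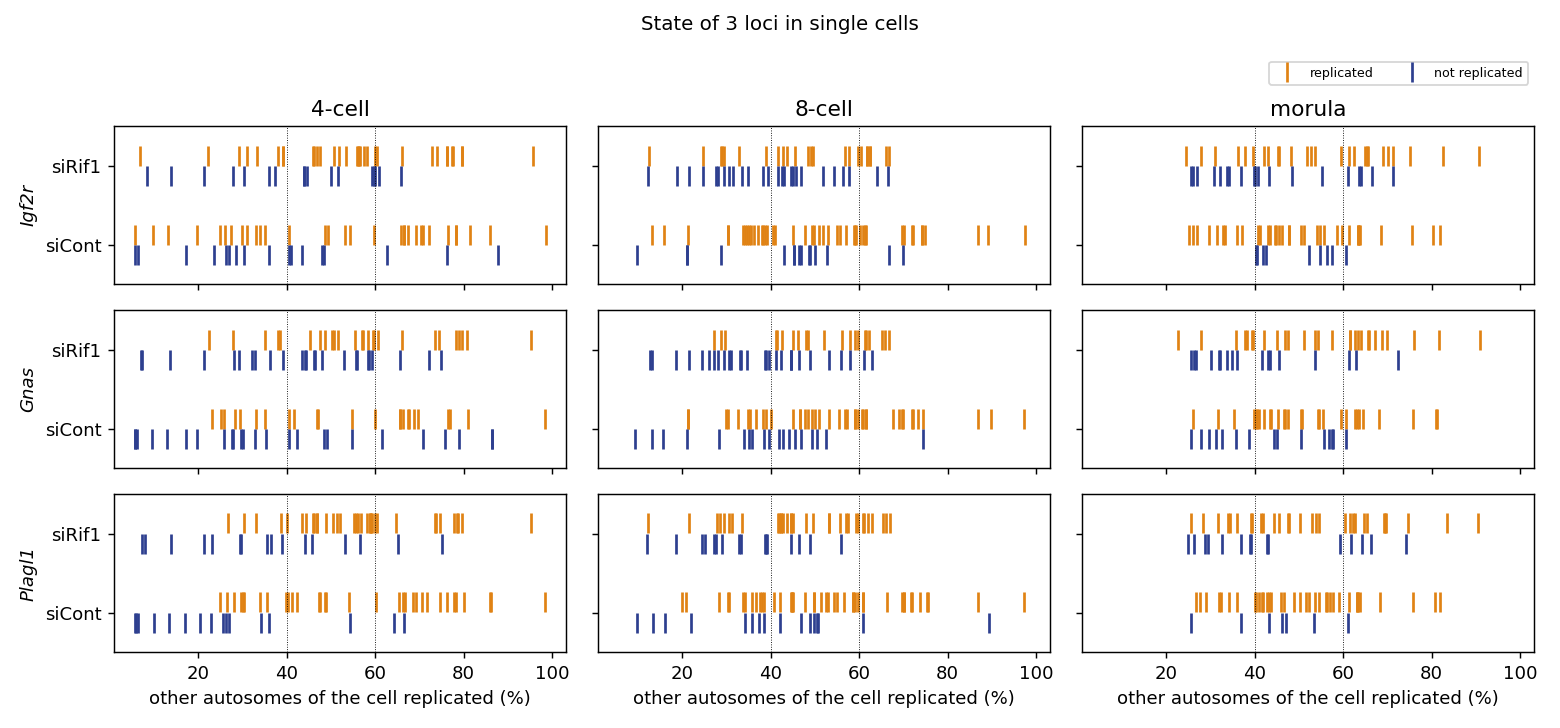
State of Igf2r, Gnas and Plagl1 in each cell, placed by the percent of the other autosomes that the cell had copied (horizontal axis). Orange ticks are cells with the locus replicated and blue ticks are cells without, siRif1 above siCont, and dotted lines mark 40 and 60%. In morulae below 40% the siCont row of Igf2r has 9 orange ticks and no blue tick, while the siRif1 row has 6 orange and 10 blue.

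Gnas differed most between treatments at the 8-cell stage. It encodes the stimulatory G protein subunit of hormone receptors, with further imprinted transcripts from other promoters. The bin was replicated in 26 of 51 siRif1 and 24 of 49 siCont cells of 4-cell embryos (50.98% and 48.98%, shift -1.91 points). In 8-cell embryos it was replicated in 21 of 50 siRif1 cells (42%, interval 28.2 to 56.8%) and 41 of 60 siCont cells (68.3%, interval 55.04 to 79.7%), with the shift at -20.2 points. In morulae it was replicated in 28 of 45 siRif1 and 29 of 44 siCont cells (62.2% and 65.9%, shift -4.27 points). The 8-cell shift stood at percentile 9.82 of its timing class, whose mean was -5.33 ± 11.02 points (SD over bins). All 21 bins of the window had negative shifts in 8-cell embryos (mean -10.1) and in morulae (mean -6.23). Among 8-cell cells below 40%, Gnas was replicated in 3 of 20 siRif1 and 10 of 20 siCont cells, with overlapping intervals.

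Plagl1 differed between treatments in morulae. It encodes a zinc finger transcription factor that restrains cell division and is expressed from the paternal copy. In 4-cell embryos the bin was replicated in 35 of 51 siRif1 and 33 of 49 siCont cells (68.6% and 67.3%, shift -2.63 points), and in 8-cell embryos in 33 of 49 and 44 of 60 (67.3% and 73.3%, shift 0.19 points). In morulae it was replicated in 30 of 45 siRif1 cells (66.7%, interval 51.05 to 79.9994%) and 37 of 44 siCont cells (84.1%, interval 69.9 to 93.4%), with the shift at -18.0 points. Among all used bins the locus stood there at percentile 78.0 in siRif1 and 93.9 in siCont. All 21 bins of the window had negative morula shifts, from -18.0 to -8.62 points. Bins of the same timing class averaged -9.16 ± 8.71 points (SD over bins), and the shift of Plagl1 stood at percentile 13.3 of them. With siRif1 values rescaled to the spread of siCont values, the shift was -9.86 points.

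Grb10 was early in all groups. It encodes an adaptor that inhibits insulin and IGF receptor signalling and is expressed from the maternal copy in most tissues. The bin was replicated in 31 of 50 siRif1 and 32 of 49 siCont cells of 4-cell embryos (62% and 65.3%), in 30 of 49 and 42 of 60 of 8-cell embryos (61.2% and 70%), and in 29 of 45 and 33 of 44 of morulae (64.4% and 75%). The shifts were -7.22, -2.59 and -11.1 points, with overlapping intervals at each stage. The morula shift was -6.68 points as the mean of the window, -8.16 points over the gene body and -4.08 points after rescaling. In 4-cell embryos all 21 bins of the window were negative (mean -10.7 points), although the midpoint bin did not pass 10 points.

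Igf2 was late in 4-cell embryos and had middle timing in morulae, with little difference between treatments at the midpoint bin. It encodes the main fetal growth factor of the IGF family and is expressed from the paternal copy. The bin, which also holds the midpoint of Ins2, was replicated in 17 of 51 siRif1 and 14 of 49 siCont cells of 4-cell embryos (33.3% and 28.6%). It was replicated in 17 of 50 and 25 of 59 cells of 8-cell embryos (34% and 42.4%), and in 20 of 43 and 21 of 44 cells of morulae (46.5% and 47.7%). The shifts were 0.85, -2.19 and -1.80 points, and the intervals overlapped at each stage. The window means were lower, at -5.77, -3.10 and -4.61 points, and 17 of the 21 bins were negative in 4-cell embryos. Bins of the window ran from -17.4 to 2.41 points in 4-cell embryos and from -17.6 to 5.07 points in morulae. H19, the maternally expressed RNA gene beside it, had shifts of -7.08, 1.503 and -1.75 points.

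Kcnq1 encodes a voltage-gated potassium channel subunit, and the promoter of the silencing RNA Kcnq1ot1 lies within the gene. The bin was replicated in 20 of 51 siRif1 and 21 of 49 siCont cells of 4-cell embryos (39.2% and 42.9%, shift -7.56 points). In 8-cell embryos the counts were 18 of 50 and 31 of 59 (36% and 52.5%, shift -10.4 points), and in morulae 24 of 43 and 24 of 44 (55.8% and 54.5%, shift 0.68 points). The gap was thus seen in 8-cell embryos and was close to 0 in morulae. The 8-cell shift was -5.40 points as the window mean and -7.46 points over the gene body. Cdkn1c, a cell cycle inhibitor gene of the same cluster, had shifts of -3.64, -5.28 and -1.59 points. Igf2 and Kcnq1 were in the same state in 34 of 51 siRif1 and 38 of 49 siCont cells of 4-cell embryos, in 37 of 50 and 47 of 59 of 8-cell embryos, and in 33 of 43 and 37 of 44 of morulae. Among the 44 other pairs of loci the median percent in the same state lay between 54.7 and 61.2% over the groups. In 4-cell embryos pairs on different chromosomes went higher than Igf2 and Kcnq1, at up to 74.5% against 66.7% in siRif1 and 81.6% against 77.6% in siCont cells.

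Dlk1 encodes a transmembrane relative of the Notch ligands that restrains fat cell formation, and it is expressed from the paternal copy. Its bin was replicated in 18 of 51 siRif1 and 17 of 49 siCont cells of 4-cell embryos (35.3% and 34.7%, shift -3.31 points). The counts were 18 of 50 and 30 of 60 in 8-cell embryos (36% and 50%, shift -7.82 points), and 22 of 45 and 25 of 44 in morulae (48.9% and 56.8%, shift -8.52 points). The intervals overlapped at each stage. The 8-cell midpoint shift passed 10 points in cells thinned to equal S phase positions (-13.3 points) and after rescaling (-10.3 points). All 21 bins of the window were negative in 8-cell embryos, from -24.2 to -5.15 points (mean -12.9 points). The same was so in morulae, from -17.6 to -4.02 points (mean -8.56 points). Bins of the same timing class averaged 6.52 ± 11.8 points (SD over bins) in morulae, and Dlk1 stood at percentile 10.6 of them. That class was number 2 of 5 from the latest, set from the other stages. In siCont morulae the bin itself stood at percentile 52.4 of all used bins, so the class does not match its timing there. Of its cluster, Meg3, a maternally expressed RNA gene, had shifts of -7.32, -7.82 and -8.57 points, and Dio3, which encodes a thyroid hormone deiodinase, had shifts of -5.68, -15.5 and -11.1 points.

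Peg3 encodes a zinc finger protein expressed from the paternal copy and had middle timing. Its bin was replicated in 28 of 51 siRif1 and 28 of 49 siCont cells of 4-cell embryos (54.9% and 57.1%). The counts were 23 of 50 and 33 of 59 in 8-cell embryos (46% and 55.9%) and 25 of 43 and 26 of 44 in morulae (58.1% and 59.1%). The midpoint shifts were -6.16, -3.75 and -1.54 points, and the intervals overlapped at each stage. In cells thinned to equal S phase positions they were -11.8, 1.88 and -8.69 points. The window means were -9.96, -0.79 and -4.89 points. In 4-cell embryos 19 of the 20 used bins of the window were negative, and bins ran from -18.1 to 2.01 points.

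At its midpoint bin Snrpn had a negative shift in 4-cell embryos and positive shifts later. It encodes a spliceosomal protein and lies in the cluster that is deleted in Prader-Willi syndrome in humans. The bin was replicated in 18 of 51 siRif1 cells (35.3%, interval 22.4 to 49.9%) and 23 of 49 siCont cells (46.9%, interval 32.5 to 61.7%) of 4-cell embryos, with the shift at -15.6 points. In 8-cell embryos the counts were 13 of 50 and 15 of 59 (26% and 25.4%, shift 6.76 points), and in morulae 10 of 43 and 6 of 44 (23.3% and 13.6%, shift 9.03 points). The 4-cell shift stood at percentile 2.09 of its timing class, and all 10 used bins of the window were negative (mean -12.0 points). Of the 21 bins of the Snrpn window only 10 were used, and these lay from -350 to 100 kb of the midpoint bin. The annotated gene is 468 kb long, so its midpoint stands for a small piece of it. At the bin of Snurf, which lies at the low-coordinate end of the gene, the shifts were -5.52, -10.8 and -2.28 points. After rescaling, the morula shift of the midpoint bin was -4.02 points. The sign at the later stages thus depended on which bin stood for the gene and, in morulae, on the scaling. Ndn, a further paternally expressed gene of the cluster, had shifts of -10.998, -1.38 and 13.5 points.

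Peg10, a retrotransposon-derived gene with a role in the placenta, was the only locus with positive shifts at all 3 stages as reported, none of them past 10 points. Of 4-cell cells, the bin was copied in 34 of 51 siRif1 and 30 of 49 siCont cells (66.7% and 61.2%, shift 1.53 points). The counts were 32 of 50 and 39 of 60 in 8-cell embryos (64% and 65%, shift 5.18 points) and 30 of 45 and 26 of 43 in morulae (66.7% and 60.5%, shift 5.62 points). In cells thinned to equal S phase positions the 4-cell shift was -6.44 points and the morula shift 12.8 points, and rescaling gave 12.5 points in 8-cell embryos and 13.8 points in morulae. Bins of its timing class averaged -7.22 ± 9.87 points (SD over bins) in morulae, and Peg10 stood at percentile 90.4 of them.

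The Peg10 window sat on a slope of replication time, least so in siRif1 4-cell embryos. There all of its bins lay above the genome mean, from 8.37 to 18.2 points. In 4-cell embryos the side at higher coordinates was above the other by 4.12 points in siRif1 and 18.0 points in siCont. The centred share ran over 28.9 points within the window in siRif1 morulae, against 55.8 points in siCont morulae. Its right side, at higher coordinates, was above its left side by 11.6 points in siRif1 and 34.9 points in siCont. The slope was steeper in siRif1 at the 8-cell stage, with 28.8 points in siRif1 and 18.2 points in siCont. In 8-cell embryos 11 of 50 siRif1 cells (22%, interval 11.5 to 35.96%) had a single state over the whole window, against 33 of 60 siCont cells (55%, interval 41.6 to 67.9%). These intervals did not overlap, and 0.915% of windows around all used bins had an siRif1 interval below the siCont interval at that stage. This comparison was picked from those of all loci and stages, and the Peg10 window went the other way at the other stages. In 4-cell embryos 31 of 51 siRif1 cells (60.8%) and 28 of 49 siCont cells (57.1%) had a single state. In morulae 21 of 45 siRif1 cells (46.7%) and 16 of 43 siCont cells (37.2%) did, and the intervals overlapped at both stages. The median share of single-state cells over the 10 loci was 61% in siRif1 and 67.2% in siCont 8-cell embryos, and over all windows 60% and 65%.

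**Figure D4:**
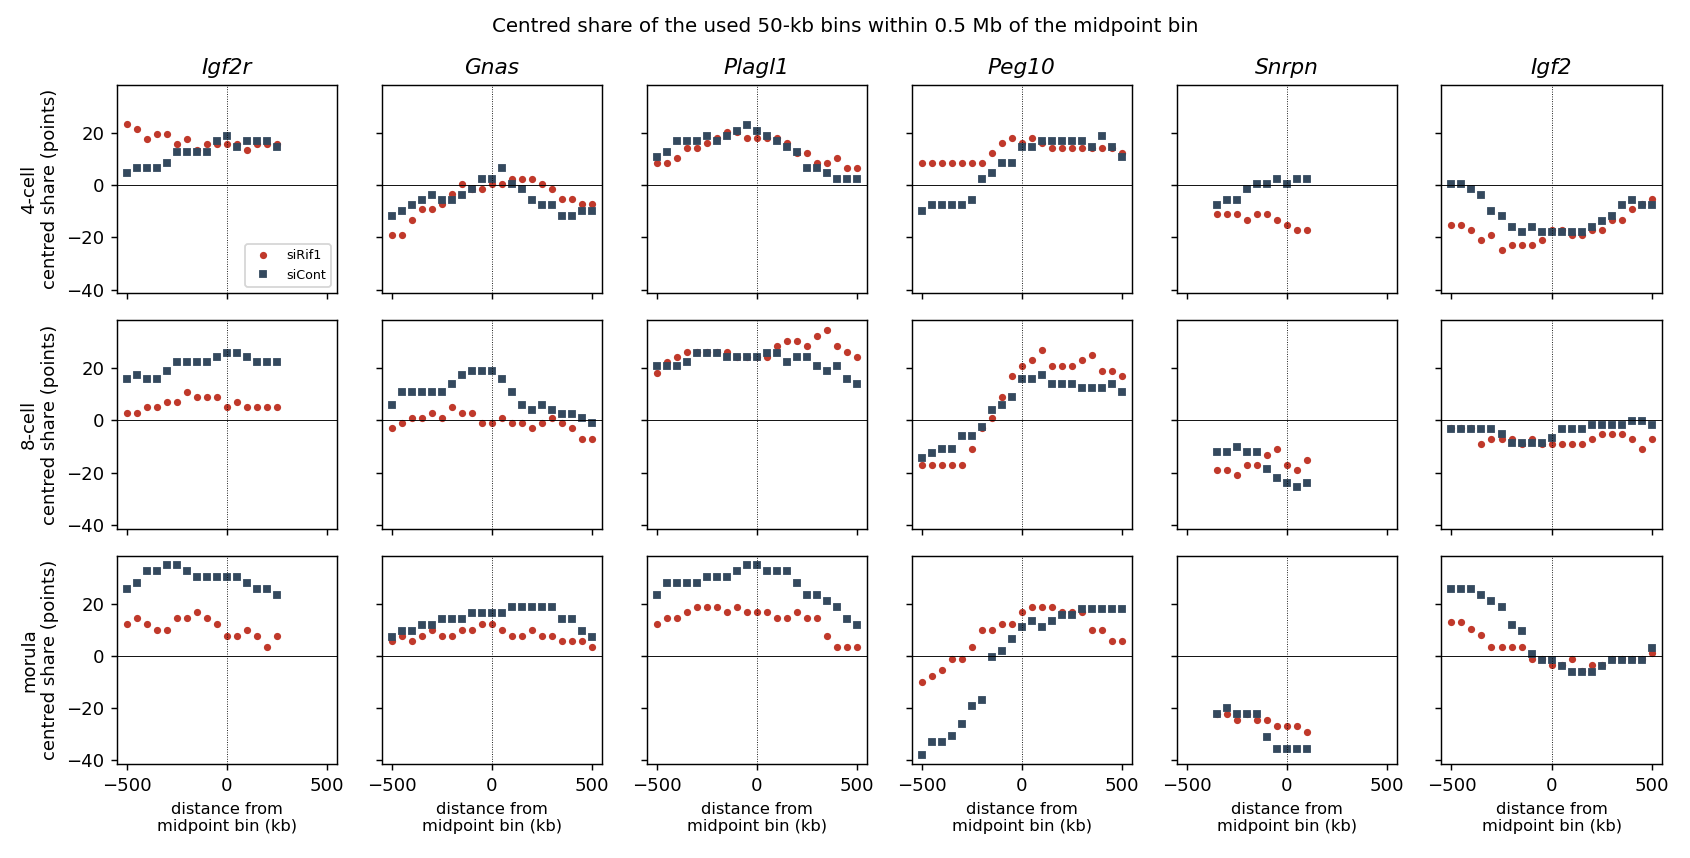
Centred share (percentage points) of the used 50-kb bins within 0.5 Mb of the midpoint bin of Igf2r, Gnas, Plagl1, Peg10, Snrpn and Igf2, at the 3 stages. Red circles are siRif1 and dark squares siCont. The Igf2r profiles are apart over the whole window in 8-cell embryos and morulae, and the siCont slope at Peg10 in morulae spans 55.8 points.

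Without regard to timing class, loci expressed from the maternal copy had lower median shifts than those expressed from the paternal copy. The 4 maternally expressed loci (Kcnq1, Igf2r, Gnas and Grb10) had median shifts of -5.22, -15.3 and -7.71 points over the stages. The medians of the 6 paternally expressed loci were -2.97, -0.999 and -1.67 points. The ranges overlapped at each stage. In morulae the maternally expressed loci ran from -22.4 to 0.68 points and the paternally expressed ones from -18.0 to 9.03 points. Gnas also has transcripts from the paternal copy. In morulae the order of the medians reversed once the mean shift of the timing class was subtracted. The values were then 2.61, -13.2, 2.9 and -1.98 points for Kcnq1, Igf2r, Gnas and Grb10. Igf2 stood at -8.33, Snrpn at 2.51, Peg3 at 5.68, Peg10 at 12.8 and Plagl1 at -8.85 points, and Dlk1 was lower than all of these. In 4-cell and 8-cell embryos the maternally expressed loci kept the lower median.

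Relative to the genome, 7 of 10 loci had higher shares in morulae than in 4-cell embryos in either treatment. The share of all bins or genes that rose is not given here, so this count does not set the loci apart. The median change in centred share was 3.32 points in siRif1 and 10.1 points in siCont cells, and over all protein-coding genes it was 5.06 and 11.4 points. In cells thinned to equal S phase positions the treatments were level, at 9.43 points in siRif1 and 9.13 points in siCont, and rescaling gave 9.67 points in siRif1. A change of 10 points or more was found at 4 loci in siRif1 cells, against 20.3% of bins and 33% of genes, and at 5 loci in siCont cells, against 34.8% of bins and 54.3% of genes. A change of -10 points or lower was found at 1 locus, Snrpn, in either treatment, against 21.1% of bins and 8.74% of genes in siRif1 and 31% of bins and 8.44% of genes in siCont. The siRif1 and siCont groups of a stage are separate cells, so these changes share no samples between treatments.

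Loci whose stage change had the same sign in both treatments and passed 10 points in at least 1 of them are given first. The share of all bins or genes that did so, or that had opposite signs, is not given here. These groupings therefore do not set the loci apart from other bins. Igf2 changed by 13.7 points in siRif1 and 16.3 points in siCont cells, Dlk1 by 14.1 and 19.3 points, Kcnq1 by 17.1 and 8.84 points, and Gnas by 11.7 and 14.1 points. Snrpn changed by -11.6 points in siRif1 and -36.1 points in siCont cells. Igf2r, Plagl1, Peg3 and Peg10 had opposite signs in the treatments. Igf2r changed by -7.74 points in siRif1 and 11.4 points in siCont cells, Plagl1 by -1.48 and 13.9 points, Peg3 by 3.72 and -0.90 points, and Peg10 by 0.48 and -3.61 points. The differences between treatments in these changes were not tested.

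**Figure D5:**
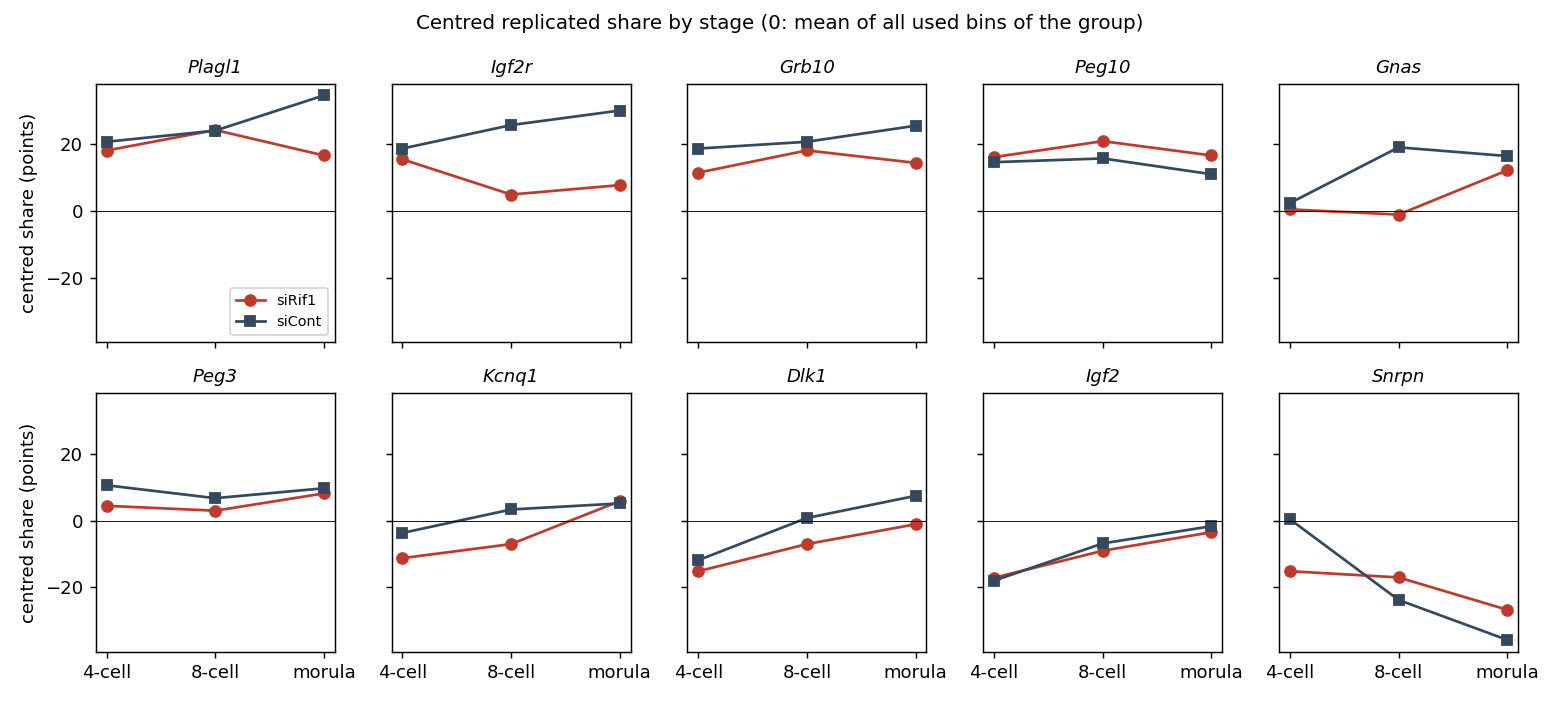
Centred share (percentage points, 0 being the mean of all used bins of the group) of each locus by stage, in siRif1 (red circles) and siCont (dark squares) cells. Igf2, Dlk1 and Kcnq1 are higher in morulae than in 4-cell embryos in both treatments, Snrpn is lower, and the lines of Igf2r separate after the 4-cell stage.

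Other imprinted genes were set beside the 10 loci. Of 70 such genes, 68 were found in the annotation with a used bin, in 60 different bins, many of them next to a locus described above. Their median shifts were -1.43, -4.98 and -3.89 points over the stages, and 39, 47 and 44 of them were negative, where 59.6%, 71.9% and 74.8% of all genes were. Shifts of -10 points or lower were found at 5, 16 and 18 of the 68 genes, against 20.7%, 42.9% and 41.1% of all genes and 12.9%, 21.1% and 24.9% of bins. Shifts of 10 points or higher were found at 8, 6 and 6, against 9.81%, 7.67% and 7.26% of all genes. In 4-cell embryos the lowest were Peg12 (-14.8 points) and, with equal values, Mkrn3 and Magel2 (-12.9 points), all in the Snrpn cluster, and the highest were Commd1 (23.1 points) and Zrsr1 (16.9 points), which lies within an intron of Commd1. In 8-cell embryos the lowest were Nnat (-24.5 points), in the bin of Blcap, and Mcts2 (-23.8 points), in the bin of H13, and the highest were Dcn (24.96 points) and Mest (21.2 points). In morulae the lowest were Slc22a3 (-20.2 points), in the Igf2r cluster, and Klf14 (-19.8 points), in the Mest cluster, and the highest were Htr2a (16.4 points) and Peg12 (15.8 points).

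For each locus the gene on another autosome with the most similar centred shares over the 6 groups was found, by the root mean square difference in points. The closest match was Sel1l3 for Grb10, at 0.44 points. The others were Plagl1 with Sub1 (1.64), Gnas with Sh2d1b1 (1.67), Dlk1 with Tk2 (1.83), Peg10 with Nemp2 (1.83), Kcnq1 with Kif12 (2.02), Igf2r with Dis3l2 (2.04), Igf2 with Chil6 (2.22), Peg3 with 4932414N04Rik (2.45) and Snrpn with Iqcm (3.15). The median difference of all genes from a locus lay between 12.1 and 36.01 points. Each match is the smallest difference over 17611 to 18799 genes, and the nearest matches of other genes were not computed.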

How the data were processed

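Tables deposited by the authors, 1 per group, gave each cell a state of 0, 1 or NA in 50-kb bins of the 19 autosomes. The submitters' processing notes name GRCm38, R 4.2.3, bedtools, Bowtie2 2.5.1, Picard and SAMtools, with no roles. How reads became states, and the read depth, are not given in the sources used here, so the precision of a state is unknown. The shortest interior run of 1 state was 5 bins (250 kb), so neighbouring bins are not separate measurements. Of 416 labelled cells, 299 had a column, and each had states at 88.1 to 94.1% of bins. A state of 1 was read as replicated because bins of genes had the higher mean share in all 6 groups.

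Bins with at least 10 measured cells in every group were kept. Shares, centring, shifts and exact intervals were computed with Python 3.11.15, pandas 2.3.3 and scipy 1.17.1, and scripts were tested on simulated data. Gene positions came from RefSeq (GRCm38.p6). A shift of 10 points was the size called. The named genes were all 10 loci, the 2 highest and 2 lowest other imprinted genes per stage, neighbours within a described cluster, and the closest gene in pattern. The loci, lists and thresholds were chosen with earlier results of these data known. Alternatives were the gene body, the window, cells between 20 and 80% replicated, cells thinned to matched S phase positions, centring per cell, rescaling to the SD of siCont, and other minimums of cells. Analysis was restricted to autosomes.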

Additional observations from a re-analysis of the deposited data

Results flagged for a closer look

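Snrpn differed in the direction of its shift between stages, by more than the 20 points that were set after its values were seen. The shift in 8-cell embryos was 22.3 points above that in 4-cell embryos, and the shift in morulae was 24.6 points above it. The shift of the midpoint bin was negative in 4-cell embryos and positive at both later stages, although rescaling gave -4.02 points in morulae. Each group is 1 sample, and the difference between stages was not tested. At the bin of Snurf all 3 shifts were negative.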

How the results depend on the processing

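Of 243 recomputed locus shifts, 242 stayed within the counting error of the value reported, and 19 had the other sign, of which those outside Snrpn had reported values between -4.27 and 1.53 points. The exception to the first count was Snrpn in 8-cell embryos, at -10.8 points in the Snurf bin. Counting error is wide at these numbers of cells, so the first count is a weak check. The other minimums of cells left every locus shift unchanged, because each locus had more measured cells than those minimums. They are counted among the alternatives although they could not move a locus share. Igf2r and Gnas in 8-cell embryos and Igf2r in morulae stayed past -10 points under all 8 alternatives, between -21.1 and -15.1, between -21.7 and -10.1 and between -23.1 and -18.5 points. Thinning cells to matched S phase positions left 37, 43 and 32 cells per group at the 3 stages. It gave a 4-cell median shift of -8.32 points, 5 loci at -10 points or lower in 4-cell embryos, 1 locus at 10 points or higher in 8-cell embryos and 2 in morulae, and a siRif1 median change from 4-cell to morula of 9.43 points. Rescaling siRif1 values to the SD of siCont gave 1 locus at -10 points or lower in morulae, 1 at 10 points or higher in 8-cell embryos and 1 in morulae, and a siRif1 median change of 9.67 points. Window means gave 2 loci at -10 points or lower in 4-cell embryos, and leaving out Snrpn, an alternative chosen after seeing the data, gave 0. The causes were not tested. No paired analysis was possible because each group is 1 sample and cell numbers do not pair cells across groups. Read depth is unknown, and the number of cells limits the precision.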

Other observations

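Imprinted genes outside the clusters of the 10 loci had shifts of either sign that changed with the stage. Commd1 was replicated in 39 of 50 siRif1 cells (78%) and 25 of 49 siCont cells (51.02%) of 4-cell embryos. Nnat, which encodes a proteolipid of the developing brain, was replicated in 18 of 50 siRif1 cells (36%) and 40 of 60 siCont cells (66.7%) of 8-cell embryos. Mest, which encodes a hydrolase-like protein expressed from the paternal copy, was replicated in 40 of 50 siRif1 cells (80%) and 39 of 60 siCont cells (65%) of 8-cell embryos, and its morula shift was -10.9 points. Dcn, which encodes the matrix proteoglycan decorin, was replicated in 19 of 49 siRif1 cells (38.8%) and 12 of 60 siCont cells (20%) of 8-cell embryos. These genes were picked as the extremes of their list, and none of the differences was tested.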
